A study of Mus musculus with 4 samples.

Results

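The G1 regulators described here are 10 genes that control whether a cell leaves the first gap phase of the cell cycle and copies its DNA. They comprise the D-type cyclins Ccnd1, Ccnd2 and Ccnd3, the kinases Cdk4 and Cdk6, the CDK inhibitors Cdkn1a, Cdkn1b, Cdkn1c and Cdkn2c, and the retinoblastoma gene Rb1. Every probe set annotated with 1 of these symbols and no other was taken, which gave 22 of the 22690 probe sets on the array. Of these, 16 probe sets from 8 genes were bright enough to be tested. Cdk6 and Cdkn1c had no tested probe set.

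Expression was measured with Affymetrix arrays in 2 NFATc1-deficient and 2 wild-type mouse osteoclast cultures. NFATc1 is the transcription factor that drives osteoclast formation downstream of the RANKL receptor. The deficient cultures came from C57BL/6 mice of genotype NFATc1 fl/fl MxCre+, in which poly I:C had been used to switch on the interferon-inducible Cre, and the wild-type cultures from NFATc1 fl/fl MxCre- mice of the same strain, so both carried the floxed alleles. Whether the MxCre- mice also received poly I:C, the age of the mice, and when they were treated are not stated in the labels. The labels describe the starting cells as sorted c-Kit and c-Fms positive marrow precursors without CD11b, CD3e or B220, whereas the design text calls them bone marrow macrophages. All cultures were kept with M-CSF and RANKL for 3 days. Each array held RNA pooled from 3 mice in replicate 1 or from 4 mice in replicate 2, and p-values measure the spread between such pools.

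D-type cyclins are made in response to growth factors such as M-CSF and pair with Cdk4 or Cdk6. The active kinases phosphorylate the retinoblastoma protein, which otherwise holds E2F transcription factors in check, and cyclin E with Cdk2 then completes the step into S phase. The INK4 inhibitor p18, encoded by Cdkn2c, binds the D-cyclin kinases, whereas the CIP/KIP inhibitors p21, p27 and p57, encoded by Cdkn1a, Cdkn1b and Cdkn1c, act mainly on the later kinases. Osteoclast precursors divide in response to M-CSF and leave the cycle before or as they fuse into multinucleated cells, and p21 and p27 have been linked to that exit in mouse cultures. The comparison asks whether these cell cycle exit genes differ without NFATc1.

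Both Nfatc1 probe sets fell in the deficient cultures, although Nfatc1 still gave a high signal there. Its brighter probe set read 3018.2 and 4097.9 on the NFATc1-deficient arrays, against 5433.6 and 6146.7 on the wild-type arrays, a log2 change of -0.71 (SE 0.15, limma adjusted p = 0.0104). The second probe set changed by -0.55 (adjusted p = 0.0129). Neither passed once NFATc1-deficient replicate 1 was left out (adjusted p of 0.0871 and 0.0950). It was not examined whether these probe sets read the exons removed by Cre. The 4 arrays had median signals between 111.6 and 130 and were scaled by the authors to nearly the same trimmed mean. Replicate 1 had high Xist in both genotypes (2690 in deficient and 3595.4 in wild-type cultures) and replicate 2 low Xist (111.4 and 106.1), so the sex of the pooled mice followed the replicate number.

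The G1 regulators did not move as a block. At their brightest probe sets Ccnd1 and Cdkn1a were higher and Cdkn1b was lower in the NFATc1-deficient cultures. The second Cdkn1a probe set changed by -0.24 and did not pass the test. The other tested genes did not pass at any probe set. Among the 16 tested probe sets, 3 rose, 1 fell and 12 did not pass, where passing means a Benjamini-Hochberg adjusted p under 0.05 in a limma fit over all 13577 tested probe sets. The background was 12.8% of probe sets higher and 11.4% lower. With each gene at its brightest tested probe set, 2 of 8 genes rose and 1 fell, against 12.9% and 11.9% of 7798 genes. The median log2 change of the 8 genes was 0.30, and that of all 7798 genes was 0.03. In 6 of the 16 probe sets both deficient signals lay above both wild-type signals and in 1 both lay below, where the background was 34.4% and 28.8%. With counts this small the shares of the 10 genes are not set apart from those backgrounds.

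**Figure D1:**
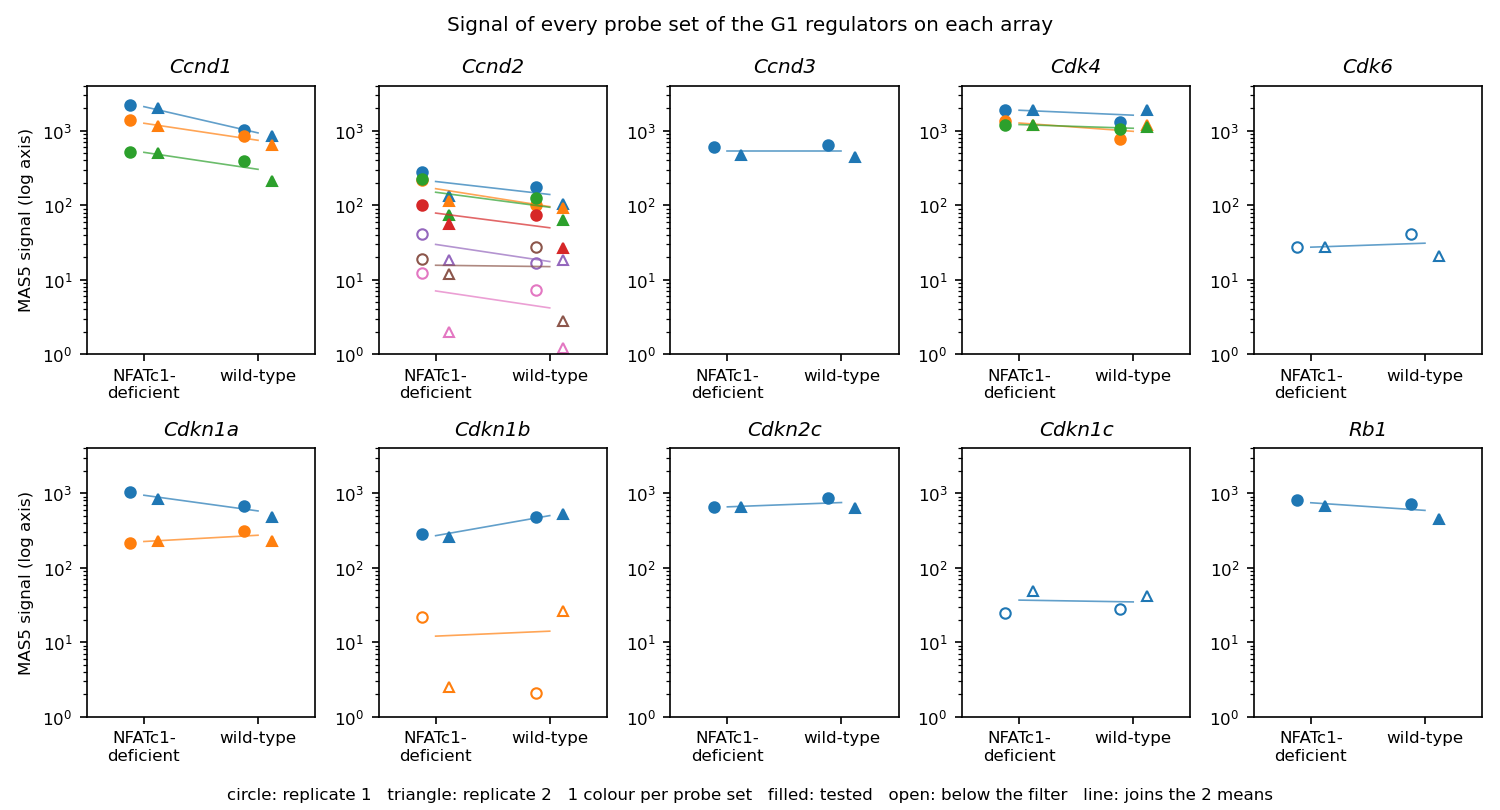
MAS5 signal (log axis) of all 22 probe sets of the 10 G1 regulators on the 2 NFATc1-deficient arrays (left in each panel) and the 2 wild-type arrays (right). Circles are replicate 1 and triangles replicate 2, each colour is 1 probe set, open symbols were below the filter, and lines join the means of the 2 genotypes. Ccnd1 sits higher in deficient cultures at its 3 probe sets and Cdkn1b sits lower at its filled probe set. Ccnd2 differs between replicates in both genotypes at most of its probe sets.

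Cyclin D1 showed the largest rise of the G1 regulators. Ccnd1 at its brightest probe set (1417420_at) read 2198.2 and 2029 in the NFATc1-deficient cultures, against 1023 and 854.6 in the wild-type cultures. Both deficient signals were above both wild-type signals, and the mean was 2114 ± 120 (SD, n = 2) in deficient and 939 ± 119 (SD, n = 2) in wild-type cultures, a 2.25-fold ratio. The log2 change was 1.16 (SE 0.12, 95% interval 0.87 to 1.44, limma adjusted p = 0.000578), on the log2(signal + 23.3) scale used for all changes below. Taken pair by pair, the change was 1.09 in replicate 1 and 1.23 in replicate 2.

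The other Ccnd1 probe sets had smaller changes of the same sign. Probe set 1448698_at read 1377.9 and 1152.8 in deficient cultures, against 850.9 and 642.5 in wild-type cultures, and rose by 0.75 (limma adjusted p = 0.0104). Probe set 1417419_at read 517.9 and 511.8 in deficient cultures, against 395.9 and 213.1 in wild-type cultures. Its change of 0.77 did not pass (adjusted p = 0.0508), a call that turned on the setting. It passed in 6 of 12 alternative fits, among them those with replicate number as block (adjusted p = 0.00967), with median scaling (0.000835) and without wild-type replicate 1 (0.000156). Without wild-type replicate 2 its adjusted p was 0.204. Its wild-type signals differed more between replicates than its deficient ones. All 3 Ccnd1 probe sets had no overlap between the genotypes.

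Cyclin D2, which shares its kinase partners with cyclin D1, differed between replicates more visibly than between genotypes at most of its probe sets. Ccnd2 at its brightest probe set (1416122_at) read 284 and 134.1 in the NFATc1-deficient cultures, against 175.4 and 104.4 in the wild-type cultures, with replicate 1 first in each pair. The genotypes overlapped, and the change of 0.47 (95% interval -0.31 to 1.24) did not pass (limma adjusted p = 0.369). Replicate 1 exceeded replicate 2 by 0.97 on the log2 scale in deficient and by 0.64 in wild-type cultures. The other 3 tested Ccnd2 probe sets had changes of 0.62, 0.46 and 0.52, and none passed (adjusted p of 0.174, 0.501 and 0.389). Probe set 1430127_a_at alone separated the genotypes, with 221.3 and 113.6 in deficient cultures against 100.9 and 91.4 in wild-type cultures. Without NFATc1-deficient replicate 2 its adjusted p was 0.0389, and without NFATc1-deficient replicate 1 the change at 2 of the 4 probe sets turned slightly negative (-0.02 and -0.22). The other 3 Ccnd2 probe sets were below the filter, with signals from 1.2 to 41.5.

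Markers of other myeloid cells also differed between replicates. The summed signal of 5 progenitor markers, each at its brightest probe set, was 1043.8 and 668.4 in the NFATc1-deficient cultures, against 776.8 and 510.1 in the wild-type cultures, so replicate 1 was higher in both genotypes. The summed signal of 10 granulocyte markers was 16468.3 and 7925.1 in deficient cultures, against 5700.4 and 6411.6 in wild-type cultures. In the wild-type sums replicate 2 was higher, but the listed genes were split. Mpo, Elane and Prtn3 were higher in replicate 1 of both genotypes. Mpo read 2890 and 1298.2 in deficient cultures, against 2021.2 and 966.8 in wild-type cultures. The other granulocyte markers were higher in replicate 2 of the wild-type cultures. As with Xist above, their part in the Ccnd2 difference between replicates was not tested. In these bulk cultures, fewer cells of a type and less RNA per cell cannot be told apart.

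Cyclin D3 was level between genotypes. Ccnd3 read 604.4 and 477.7 in the NFATc1-deficient cultures, against 637 and 445.1 in the wild-type cultures, with overlapping ranges. The change was 0.01 (95% interval -0.43 to 0.45, limma adjusted p = 0.975), and a shift within that interval was not resolved by 4 arrays. Its sign depended on the scaling and on single arrays.

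The catalytic partners of the D cyclins did not pass the test. Cdk4 at its brightest probe set (1422441_x_at) read 1900.6 and 1881.7 in the NFATc1-deficient cultures, against 1320.7 and 1925 in the wild-type cultures. The deficient arrays lay inside the wild-type range, and the change was 0.24 (95% interval -0.13 to 0.62, limma adjusted p = 0.333). The 2 other Cdk4 probe sets had changes of 0.40 (adjusted p = 0.175) and 0.16 (adjusted p = 0.335). At 1422440_at and 1422441_x_at the replicate 1 arrays differed by 0.80 and 0.52, whereas the replicate 2 arrays differed by -0.01 and -0.03. Without wild-type replicate 2 these 2 probe sets passed, with changes of 0.71 (adjusted p = 0.00381) and 0.51 (adjusted p = 0.0169).

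Cdk6, the second D-cyclin kinase, is known to be lowered during RANKL-driven osteoclast formation in mouse cultures. Its only probe set read 27.7 and 27.2 in deficient cultures, against 41.2 and 20.9 in wild-type cultures. These signals overlap and lie below the filter at a mean signal of 61.95, so no test was made. MAS5 detection calls were not used here, and a low signal on this array says little about the level of the transcript.

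**Figure D2:**
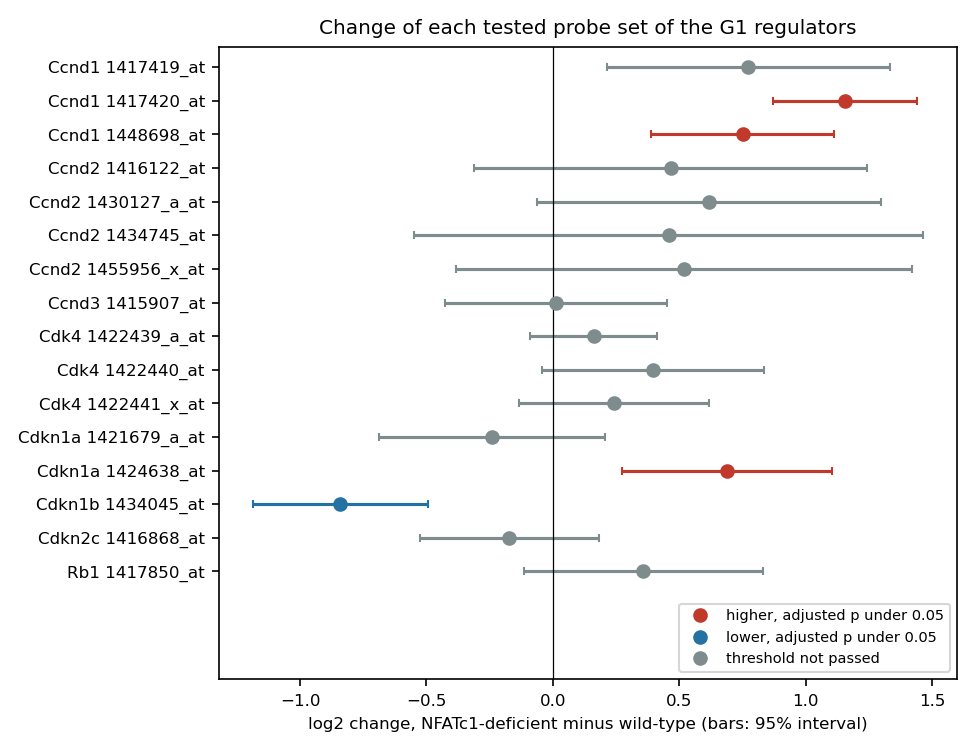
Log2 change (NFATc1-deficient minus wild-type) of the 16 tested probe sets of the G1 regulators, with the 95% interval from limma before adjustment for multiple tests. Red probe sets rose and the blue one fell at an adjusted p under 0.05. At Cdkn1a the 2 probe sets lie on opposite sides of 0.

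Among the CDK inhibitors of the G1 regulators, the gene for p27 fell. Cdkn1b (1434045_at) read 280 and 257.7 in the NFATc1-deficient cultures, against 475.6 and 524.6 in the wild-type cultures. Both deficient signals were below both wild-type signals, and the mean was 269 ± 15.8 (SD, n = 2) in deficient and 500.1 ± 34.6 (SD, n = 2) in wild-type cultures, 1.86-fold lower in deficient cultures. The log2 change was -0.84 (SE 0.15, 95% interval -1.19 to -0.49, limma adjusted p = 0.00533), with -0.72 for the replicate 1 pair and -0.96 for the replicate 2 pair. The call held in each of the 12 alternative fits. The other Cdkn1b probe set (1419497_at) was below the filter, at 21.6 and 2.5 in deficient cultures and 2.1 and 26 in wild-type cultures.

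The stretch before the Cdkn1b start site is shown because it is the G1 inhibitor that fell. RefSeq places it on the plus strand of GRCm38.p6 at chr6:134920151-134920400, and the capitals mark a GGGCGG box, the letters bound by SP1 family factors, 61 bases before the start.
Cdkn1b: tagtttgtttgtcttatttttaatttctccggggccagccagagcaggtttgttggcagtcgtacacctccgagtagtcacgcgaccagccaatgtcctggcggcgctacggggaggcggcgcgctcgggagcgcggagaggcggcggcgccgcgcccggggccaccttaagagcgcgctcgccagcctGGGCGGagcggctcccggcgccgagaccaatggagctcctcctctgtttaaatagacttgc
The letters GGAAA, the core that NFAT proteins bind, were absent from these 250 bases on either strand, which is no statement about NFATc1 binding to the gene. A GGGCGG box on either strand was present in 32.7% and GGAAA in 55.6% of all 32851 RefSeq promoters of this length.

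Cdkn1a, which encodes p21 and is induced by p53 and by differentiation signals, gave different answers at its 2 probe sets. At the brighter one (1424638_at) it read 1049.1 and 828 in the NFATc1-deficient cultures, against 674.1 and 480.9 in the wild-type cultures. The genotypes did not overlap and the rise was 0.69 (SE 0.18, 95% interval 0.27 to 1.10, limma adjusted p = 0.0261). At the dimmer one (1421679_a_at) it read 217.6 and 231.5 in deficient cultures, against 314.1 and 230.9 in wild-type cultures, with nearly equal signals in replicate 2. That change was -0.24 (95% interval -0.69 to 0.21, adjusted p = 0.421). The rise at the brighter probe set lost its call in 4 alternative fits. Its adjusted p was 0.119 without NFATc1-deficient replicate 1, 0.0837 without wild-type replicate 2, 0.0713 with no filter on low signals and 0.0869 with no trend in the variance.

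RefSeq gives Cdkn1a 2 separate start sites on the plus strand of GRCm38.p6, and both are shown because the probe sets disagree. Which transcripts each probe set detects was not analysed here. In the upstream one, at chr17:29090729-29090978, the capitals mark, in order, 1 GGAAA core on the minus strand (203 bases before the start) and 2 p53 half-sites (73 and 51 bases before the start). In the downstream one, at chr17:29093519-29093768, they mark 2 GGGCGG boxes (104 and 46 bases before the start).
Cdkn1a upstream start: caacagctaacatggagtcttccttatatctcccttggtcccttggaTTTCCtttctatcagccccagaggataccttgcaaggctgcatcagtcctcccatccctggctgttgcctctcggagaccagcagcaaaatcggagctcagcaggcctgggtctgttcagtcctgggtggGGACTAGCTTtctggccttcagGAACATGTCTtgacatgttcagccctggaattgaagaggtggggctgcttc
Cdkn1a downstream start: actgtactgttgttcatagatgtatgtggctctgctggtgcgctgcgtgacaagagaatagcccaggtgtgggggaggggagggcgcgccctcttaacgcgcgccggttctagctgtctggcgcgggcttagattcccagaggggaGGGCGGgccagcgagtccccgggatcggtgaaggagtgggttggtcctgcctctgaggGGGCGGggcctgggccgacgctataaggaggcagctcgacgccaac
A p53 half-site was present in 7.13% of the 32851 promoters. The full p53 response element, 2 exact half-sites without a gap, had no match in the 9 promoters found for 6 of the 10 genes. Nor had the E2F letters TTTCGCGC or TTTGGCGC or the AP-1 letters TGANTCA. In the upstream Cdkn1a stretch, the bases right after the last marked half-site differ from a half-site only at their first base. The search allowed no mismatch, so a missing match is no statement about p53 binding. Promoters were matched for Ccnd3, Cdk4, Cdk6, Cdkn1a, Cdkn1b and Cdkn2c and not for Ccnd1, Ccnd2, Cdkn1c and Rb1. The FOXO letters TGTTTAC occurred once, 243 bases before the upstream Ccnd3 start, and in 3.17% of all promoters.

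The 2 remaining inhibitors and the retinoblastoma gene did not pass. Cdkn2c, encoding p18, read 652.1 and 658.4 in the NFATc1-deficient cultures, against 858.3 and 639.3 in the wild-type cultures. The deficient arrays lay within the wild-type range, and the change was -0.17 (95% interval -0.53 to 0.18, limma adjusted p = 0.472). Cdkn1c, encoding p57, was below the filter, at 24.5 and 48.9 in deficient cultures and 28.1 and 41.3 in wild-type cultures. Rb1, the substrate of the D-cyclin kinases, read 817.6 and 670.7 in deficient cultures, against 720 and 454.8 in wild-type cultures. The genotypes overlapped and the change was 0.36 (95% interval -0.11 to 0.83, adjusted p = 0.254), although without wild-type replicate 1 it was 0.68 (adjusted p = 0.0106).

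**Figure D3:**
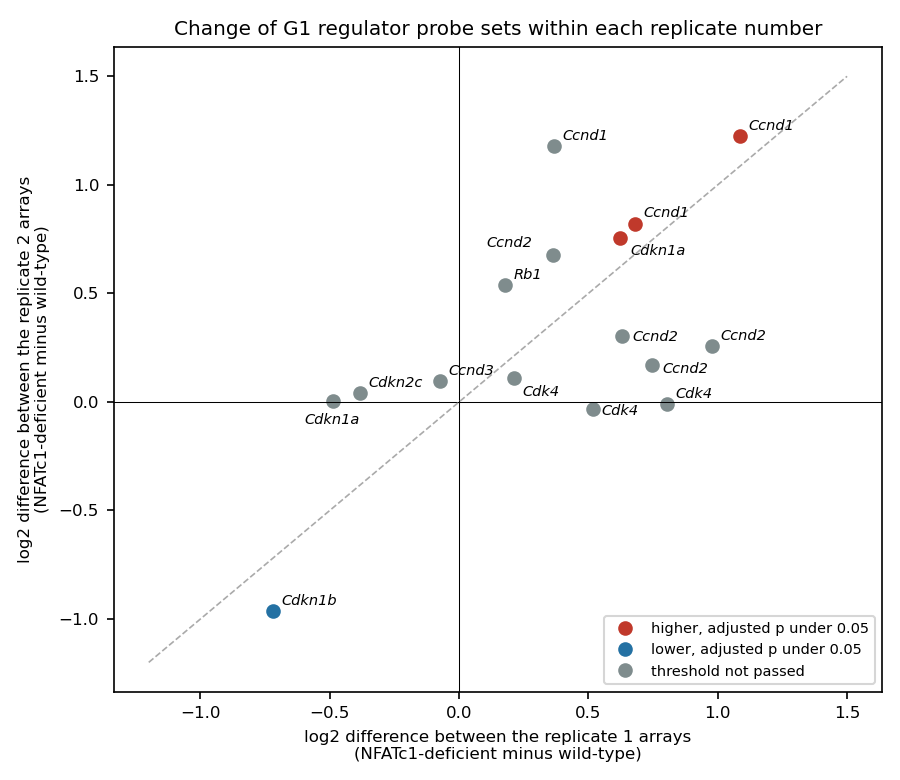
Log2 difference, NFATc1-deficient minus wild-type, in replicate 1 (x axis) and in replicate 2 (y axis) for the 16 tested probe sets of the G1 regulators. The dashed line marks equal differences. The 3 probe sets that rose and the Cdkn1b probe set that fell lie near the line, whereas 2 Cdk4 probe sets have differences of 0.80 and 0.52 in replicate 1 and of -0.01 and -0.03 in replicate 2.

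The other cyclins and kinases listed around the G1 regulators were mostly higher without NFATc1. Of 9 other cyclins and kinases of G1 and S entry, 6 rose and 0 fell in the limma fit, where 12.9% of all genes rose and 11.9% fell, and the median was 0.53. At an unadjusted p under 0.05 the counts were 8 higher and 0 lower. Cyclin E2 had the largest change of these. Ccne2 read 1040 and 849.5 in the NFATc1-deficient cultures, against 355 and 286.9 in the wild-type cultures, a rise of 1.49 (SE 0.16, limma adjusted p = 0.00058). Its groups did not overlap, and the change was 1.49 in both replicate pairs. Ccnh, the cyclin of the CDK-activating kinase, rose by 0.83, the phosphatase gene Cdc25a by 0.70 and Cdk2 by 0.53, while 1 of the 3 Ccnh probe sets did not pass (0.33). Cdc25a and Cdk2 lost the call without single arrays, and the list count was 3 without NFATc1-deficient replicate 1 and 3 without the trend in the variance.

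Of 13 genes for other INK4 inhibitors and for the turnover of G1 regulators, 2 rose and 1 fell, with a median of 0.16. These counts are close to the shares over all genes, 12.9% higher and 11.9% lower, so only the single genes are described. Cdkn2b, encoding the INK4 inhibitor p15, read 73.8 and 58.2 in the NFATc1-deficient cultures, against 181.1 and 159.2 in the wild-type cultures. It fell by 1.12 on the log2 scale (limma adjusted p = 0.0113), with both deficient signals below both wild-type ones. Its deficient signals lay near the filter of 61.95, and it was not tested with the filter at the 60th percentile. Skp2, the F-box protein that marks p27 for degradation, read 855.8 and 835.5 in deficient cultures, against 479.7 and 380.5 in wild-type cultures. It rose by 0.95 (adjusted p = 0.00271), and 4 of its 6 tested probe sets passed. Cks2 rose by 0.79. Cks1b, the cofactor Skp2 needs to bind p27, had 0.27 at its brightest probe set (adjusted p = 0.0844) and rose by 0.98 at the other. These lists give the mRNA of the turnover machinery and not the amount of p27 protein.

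The relatives of Rb1 and the E2F factors rose in part. Of 14 pocket protein, E2F and DREAM complex genes, 7 rose and 0 fell in the limma fit, against 12.9% and 11.9% of all genes, with a median of 0.34, and at an unadjusted p under 0.05 the counts were 7 higher and 0 lower. Lin9, a subunit of the DREAM complex, rose by 1.03 and the E2F partner Tfdp1 by 0.84. Rbl1 (p107, a relative of the retinoblastoma protein) rose by 0.78 and E2f1 by 0.77. Lin9 read 138.1 and 130.4 in the NFATc1-deficient cultures, against 60.9 and 47 in the wild-type cultures. It thus passed the filter of 61.95 only through its deficient signals, and with no filter it lost the call (limma adjusted p = 0.0711). A second E2f1 probe set had a change of -0.02 and did not pass. Lin9 and E2f1 lost the call without either of the deficient arrays. The list count was 2 without NFATc1-deficient replicate 1, 3 without NFATc1-deficient replicate 2, 4 without wild-type replicate 2, 3 with no filter on low signals and 4 with no trend in the variance.

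Genes switched on at S phase entry and in mitosis rose in nearly all of the 2 lists that hold them. All 17 tested E2F-regulated S phase genes rose at their brightest probe set, where 12.9% of all genes rose, with a median of 1.01. The count was 15 with median scaling and 15 with no variance trend, and leaving out a single array also lowered it in some fits. A further tested probe set of Cdt1 (0.14), of Mcm2 (0.53), of Mcm3 (0.87) and of Rrm2 (0.43) did not pass. Cdc6, which licenses replication origins, read 891.2 and 671.5 in the NFATc1-deficient cultures, against 238.6 and 250.6 in the wild-type cultures, a rise of 1.57 (limma adjusted p = 0.000578). Thymidine kinase Tk1 rose by 1.42, the replication factor Gins1 by 1.29 and the helicase subunit Mcm4 by 1.25. Of 15 genes of G2 and mitosis 13 rose, with a median of 0.82, among them Bub1 (1.28), Mki67 (1.01), Kif11 (1.00) and Top2a (0.97). Mki67, a general marker of cycling cells, read 2421 and 2298.4 in deficient cultures, against 1192.9 and 1131.3 in wild-type cultures, with no overlap.

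Of 16 tested p53 targets other than Cdkn1a, 0 rose and 1 fell in the limma fit, with a median of -0.01. With 12.9% of all genes higher and 11.9% lower, so few calls in 16 genes are not set apart from the background. At an unadjusted p under 0.05 the counts were 1 higher, the nuclease gene Aen (0.44), and 3 lower. At the brightest probe sets the one that fell after adjustment was Trp53inp1, while a dimmer Sesn1 probe set also fell (-0.61, limma adjusted p = 0.0332). The second Trp53inp1 probe set changed by -0.61 and did not pass (adjusted p = 0.104). At its brightest probe set Trp53inp1 read 432.2 and 854.9 in the NFATc1-deficient cultures, against 1167.6 and 1031.8 in the wild-type cultures (-0.83, limma adjusted p = 0.0489). Its call was lost in 4 alternative fits, with an adjusted p of 0.168 without NFATc1-deficient replicate 1 (change -0.35), 0.0523 with the pseudocount at the 10th percentile, 0.134 with no filter and 0.137 with no variance trend. The count of p53 targets that rose was 1 in the blocked fit, with each gene's probe sets averaged and without wild-type replicate 2.

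Of 11 tested FOXO and quiescence-associated genes, 2 fell and 2 rose, with a median of -0.10. These counts too are close to the 11.9% lower and 12.9% higher of all genes. They stand at the brightest probe set of each gene. Dimmer probe sets of Txnip (-0.86) and Cited2 (-0.62) also fell, and a dimmer one of Tob2 rose (0.73). Foxo3, a transcription factor that can induce Cdkn1b, read 259.2 and 295.7 in the NFATc1-deficient cultures, against 479.2 and 440.3 in the wild-type cultures, and fell by 0.69 on the log2 scale (limma adjusted p = 0.0141). Its other probe set had a change of -0.06 and did not pass. The transcriptional repressor Hbp1 fell by 0.60, while the atypical cyclin Ccng2 rose by 0.67 and the antiproliferative gene Btg1 by 0.37. Each also had a dimmer tested probe set that did not pass (-0.06, 0.39 and 0.32 in the same order). All 4 lost the call without NFATc1-deficient replicate 1.

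**Figure D4:**
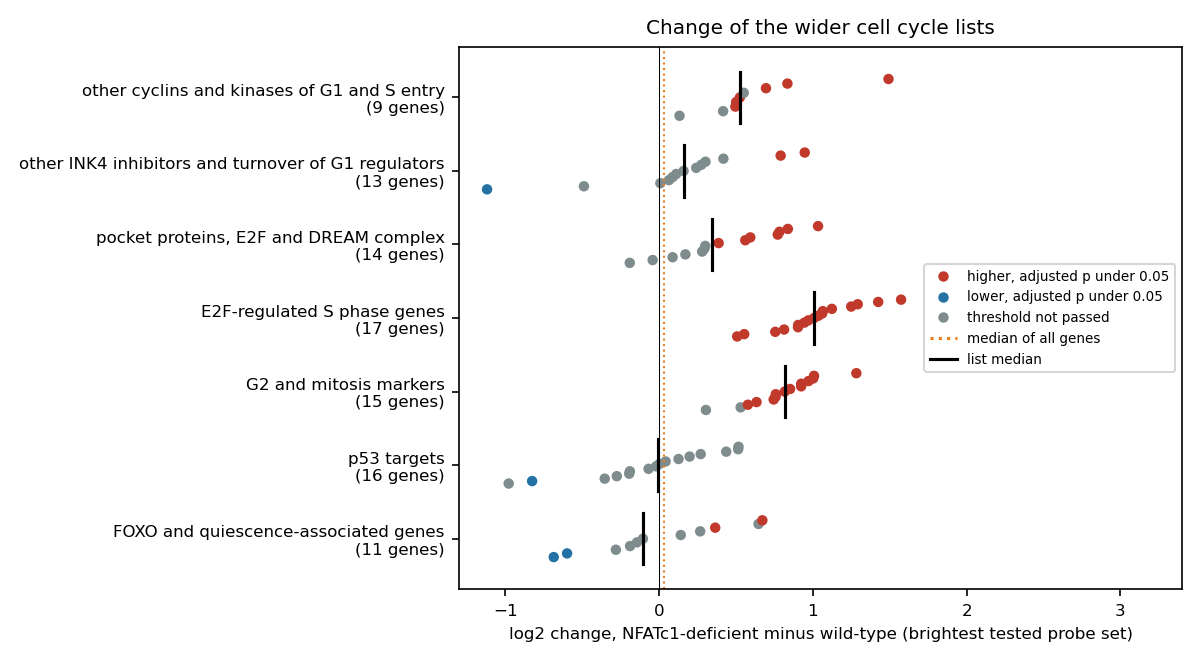
Log2 change (NFATc1-deficient minus wild-type) of each tested gene, at its brightest probe set, in 7 lists around the G1 regulators. Black bars are list medians, the dotted line is the median of all 7798 genes (0.03), and red or blue points passed an adjusted p under 0.05. All 17 S phase genes lie to the right with a median of 1.01, and the p53 targets lie on both sides of 0.

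Marker genes of cell types differed between the genotypes in some lists and not in others. Sums given here add the brightest probe set of each listed gene on the array, tested or not. Counts stand against 11.9% of all genes lower and 12.9% higher. Of 8 osteoclast markers 7 fell, and their summed signal was 19853.2 and 26993 in the NFATc1-deficient cultures, against 44313.9 and 49935.8 in the wild-type cultures. Of 7 tested macrophage markers 2 fell and 1 rose, with sums of 28848 and 28029 in deficient cultures against 33163.2 and 37848.9 in wild-type cultures. Of 10 granulocyte markers 4 rose, and their sums are given with Ccnd2. Of 4 tested progenitor markers 0 passed in the limma fit (1 was higher at an unadjusted p under 0.05). With so few genes, the macrophage and progenitor counts are not set apart from the shares over all genes. Erythroid, stromal and lymphoid markers had sums of at most 629.9 on any array, and Alas2 and Col1a1 lay below the pseudocount on all 4. Among these, only the lymphoid gene Il7r passed. The part of these cell types in the changes of Ccnd1, Cdkn1a, Cdkn1b and the wider lists was not tested.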

How the data were processed

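The authors deposited linear intensities, 1 per probe set and array, computed with MAS5 per the submitters' processing notes. The trimmed mean of the deposited intensities lay between 500.186 and 500.211 on the 4 arrays. The sources used here do not give the MAS5 version. The number of arrays limits the precision.

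Gene names came from the platform's annotation, where 20393 of 22690 probe sets had 1 symbol. Signals were analysed as log2(signal + 23.3), the pseudocount being the 25th percentile of all values, which understates changes of dim genes. After 64 control probe sets were left out, limma 3.58.1 (R 4.3.3) was run on the 13577 probe sets whose mean signal exceeded the 40th percentile, 61.95 (lmFit, eBayes with intensity trend, two-sided, Benjamini-Hochberg over all tested probe sets, threshold 0.05). Every adjusted p comes from this fit or a named alternative. Folds are ratios of mean signals. The script was tested on simulated data.

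Genes of the wider lists stand at their brightest tested probe set. All 10 G1 regulators are named, and from each of 7 wider lists up to 4 genes with the largest change among those that passed; Cks1b and Aen were named in addition after their values were seen. The members and lists were chosen with earlier results of these data known, so the rise of cell cycle genes is no independent support. Alternatives changed the pseudocount, filter, scaling, variance trend, replicate block, probe set rule and single arrays. Promoter sequences are from RefSeq (GRCm38.p6), as the 250 bases before each start. The motifs searched were picked after the expression values were seen. No genome was used here.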

Additional observations from a re-analysis of the deposited data

How the results depend on the processing

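The calls for Ccnd1 at 1417420_at and for Cdkn1b held in all 12 alternative fits of each probe set, with changes of 1.03 to 1.28 and of -0.91 to -0.67. Over all probe sets, 1157 were higher without the filter and 990 without the variance trend, and leaving out 1 array gave 854 to 1945 higher and 940 to 1546 lower. The count of G1 regulator probe sets that rose was 1 without the variance trend and 2 to 5 when 1 array was left out. The count of G1 regulator genes that rose was 1 without the filter, without the variance trend or when each gene's probe sets were averaged, and 1 to 3 without 1 array. Among the 95 wider pathway genes, 2 fell without the variance trend and 2 to 5 without 1 array, and 34 to 50 rose without 1 array. With the lone array assumed to vary like the other genotype, leaving out 1 array gave changes of -0.017 to 0.95 for Ccnd2 at 1416122_at, -0.22 to 1.14 at 1434745_at, -0.24 to 0.26 for Ccnd3, -0.025 to 0.51 for Cdk4 at 1422441_x_at and -0.38 to 0.034 for Cdkn2c. Ccnd3 also turned to -0.022 with quantile scaling. Nfatc1 did not pass without the variance trend (-0.71 and -0.55), its dimmer probe set did not pass with median scaling (-0.53), and leaving out 1 array gave -0.93 to -0.49 and -0.68 to -0.41. Of 24 named wider genes, 14 kept the call under every alternative that tested them. The causes were not tested.

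The replicate numbers mark pool sizes and not a stated shared batch. The difference between replicates 1 and 2 correlated at 0.13 between the genotypes across tested probe sets. With replicate number as a block, 50 wider pathway genes rose and 4 fell, and Ccnd1 at 1417419_at passed (adjusted p = 0.00967), while the other tested G1 regulator probe sets stayed on the same side of the threshold.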
